A study of Bos taurus with 12 samples.

Results

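The genes described here are HSPA5, HSP90B1, XBP1, ATF6, ERN1, DNAJB9, PDIA4, CALR, CANX and PDIA3, which cover the unfolded protein response and the folding chaperones of the endoplasmic reticulum (ER). They were taken as every non-control probe of a bovine oligonucleotide array whose RefSeq transcript carries 1 of these 10 symbols. In all, 26 of the 43653 probes met this rule and covered 8 of the 10 genes. ATF6 and ERN1 had no matching probe and are only named. The rule selects by symbol and not by signal. The tissue was mammary gland (MG) taken by biopsy from multiparous midlactation Holstein cows. Gene expression was measured with 1 single-color (Cy3) array per biopsy, 12 arrays in all. The 6 arrays of the CONT group came from day 0, when cows ate a lactation diet ad libitum. The 6 arrays of the REST group came from day 6 of a restriction in which feed was limited to 50% of the net energy for lactation requirement.

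Each of the 6 cows gave 1 biopsy in each period, from alternating sides of the rear udder, and both of its arrays were on the same slide. Cows 1 and 2 were on slide 1, cows 3 and 4 on slide 2, and cows 5 and 6 on slide 3. The restriction always came after the control period, so the diet, the passage of days and the side sampled cannot be told apart. A biopsy is a mixture of cells, so fewer cells of a type and less RNA per cell cannot be told apart either. The study's methods state that 1 Holstein cow was excluded for mastitis and the series description counts 5 cows, while the labels give 6 cows without naming an excluded one. For this reason the differences between the periods and the counts of called probes and genes were also computed without each cow; the spreads, correlations and marker sums were not.

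Secretory cells fold large amounts of milk protein in the ER. HSPA5 (also called BiP or GRP78) is the main Hsp70 chaperone of this compartment and a classical target of the unfolded protein response. HSP90B1 (GRP94) is its Hsp90 chaperone, DNAJB9 a J-domain co-chaperone of HSPA5, CALR and CANX the lectin chaperones that hold newly made glycoproteins, and PDIA3 and PDIA4 oxidoreductases that form and rearrange disulfide bonds. When unfolded proteins accumulate, the sensor ERN1 (IRE1) splices the messenger RNA of XBP1, the sensor ATF6 is cleaved, and both give transcription factors that raise chaperone genes. The arrays measured total XBP1 messenger RNA, and no probe was assigned here to its spliced form.

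No chaperone gene nor XBP1 passed the test between CONT and REST. Of the 26 probes, 0 had an adjusted p under 0.1 in limma with cow as a block, the Benjamini-Hochberg adjustment running over all 19403 tested probes, and 0 had an unadjusted p under 0.05. Over all tested probes, 16% were called, 7.22% higher and 8.78% lower in REST, and 27.6% had an unadjusted p under 0.05. With 1 probe per gene (the brightest), 0 of the 8 genes were called, against 16.2% of the 7930 genes tested (6.94% higher and 9.27% lower). Without the cow block the members called were again 0 of 26 probes and 0 of 8 genes, where 4.31% of all probes and 4.40% of all genes passed. The median difference, REST minus CONT, over the 8 genes was -0.00028 on the log2 scale, against -0.0090 over all genes. The median absolute difference was 0.029 for the 8 genes and 0.147 for all genes. HSPA5 remained below 0 under all 20 alternatives, from -0.62 to -0.016, and was called under none of them. Each of the other 7 genes turned sign under at least 1 alternative, without being called. Without cow 5, 2 CANX probes other than the brightest were called (-0.59, adjusted p = 0.0746, and -0.57, adjusted p = 0.0700, by limma), where 16.2% of all probes were.

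The signal of each gene is given in log2 units relative to the 75th percentile of its array, from its brightest probe. A signal cannot be set against that of another gene, since probes differ in how well they bind. All 26 probes were well above background on all 12 arrays.

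HSPA5 in CONT was 5.46 in cow 1, 5.23 in cow 2, 4.66 in cow 3, 5.47 in cow 4, 4.26 in cow 5 and 5.24 in cow 6. In REST it was 4.43, 4.54, 5.10, 4.27, 5.46 and 5.24 in the same order of cows. The groups overlapped fully: the range was 4.26 to 5.47 in CONT and 4.27 to 5.46 in REST, with cow 5 lowest in CONT and highest in REST, and cow 4 highest in CONT and lowest in REST. The mean was 5.05 ± 0.49 in CONT and 4.84 ± 0.49 in REST (SD, n = 6). The difference of -0.21 (SE 0.29, 95% confidence interval -0.88 to 0.45, adjusted p = 0.672 by limma) did not pass the test. The 4 HSPA5 probes gave differences from -0.37 to -0.21, none of them called.

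DNAJB9 had its lowest, median and highest signal at 2.42, 2.64 and 3.36 in CONT. In REST these were 1.96, 2.67 and 3.26, so that the groups overlapped. The difference was -0.12 (SE 0.25, 95% confidence interval -0.69 to 0.45, adjusted p = 0.795 by limma).

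HSP90B1 ranged from 4.12 to 4.90 in CONT with a median of 4.61. In REST it ranged from 4.29 to 4.97 with a median of 4.64, again overlapping. The difference was 0.042 (SE 0.18, 95% confidence interval -0.37 to 0.45, adjusted p = 0.905 by limma).

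Of the lectin chaperones, the soluble CALR ranged from 5.70 to 6.69 in CONT (median 6.37) and from 5.97 to 6.53 in REST (median 6.37). Its difference was -0.0024 (SE 0.17, 95% confidence interval -0.39 to 0.38, adjusted p = 0.994 by limma). The membrane-bound CANX ranged from 4.56 to 5.25 in CONT (median 4.92) and from 4.48 to 5.29 in REST (median 4.82). Its difference was -0.011 (SE 0.16, 95% confidence interval -0.38 to 0.36, adjusted p = 0.972 by limma). For both genes the CONT and REST arrays overlapped over most of their range. The 6 CALR probes spanned differences of -0.0066 to 0.14. The 7 CANX probes spanned -0.31 to 0.24, with the dimmest at 0.24. That probe had the lowest adjusted p of all 26 (0.198 by limma).

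PDIA3, the partner of the lectin chaperones, ranged from 1.92 to 2.69 in CONT (median 2.46) and from 2.18 to 2.76 in REST (median 2.44). The difference was 0.028 (SE 0.14, 95% confidence interval -0.29 to 0.35, adjusted p = 0.921 by limma). PDIA4 ranged from 1.89 to 2.61 in CONT (median 2.23) and from 1.75 to 2.97 in REST (median 2.17). The difference was 0.030 (SE 0.21, 95% confidence interval -0.44 to 0.50, adjusted p = 0.940 by limma). Both oxidoreductases thus overlapped between the groups, and the 3 PDIA4 probes gave differences of 0.025 to 0.078.

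XBP1, the transcription factor, had the smallest standard error of the 8 genes. It ranged from 6.01 to 6.35 in CONT (median 6.24) and from 5.72 to 6.45 in REST (median 6.25). The difference was 0.0018 (SE 0.093, 95% confidence interval -0.21 to 0.21, adjusted p = 0.992 by limma), which as a ratio of REST to CONT spans 0.865 to 1.16. The interval for HSPA5 was wider, 0.542 to 1.37. The REST array of cow 4 gave the lowest REST value on all 3 XBP1 probes.

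**Figure D1:**
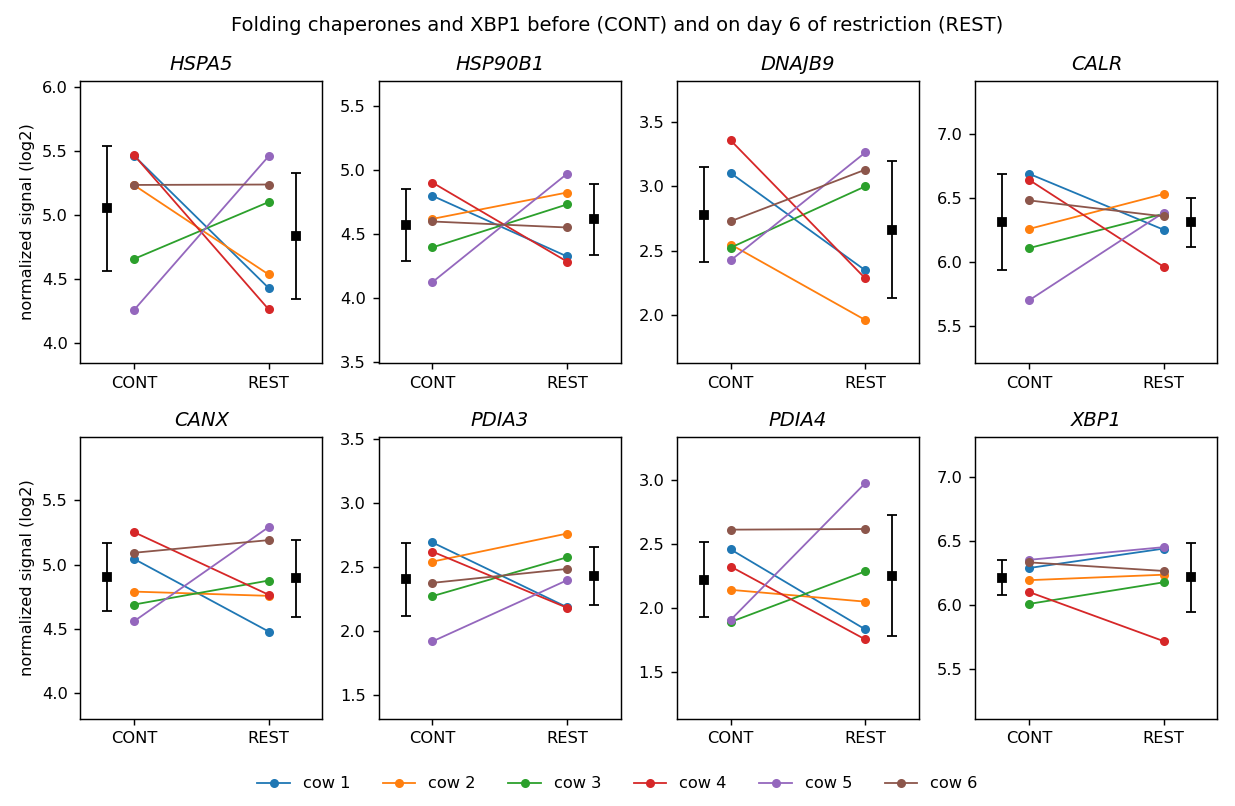
Normalized signal (log2, relative to the 75th percentile of the array) of the brightest probe of each of the 8 genes in CONT and REST; each colored line joins the 2 biopsies of 1 cow, and black squares with bars give the group mean ± SD (n = 6). The lines of HSPA5 and of the other chaperones cross, with cow 4 (red) going down and cow 5 (purple) going up, while XBP1 stays between 5.72 and 6.45.

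**Figure D2:**
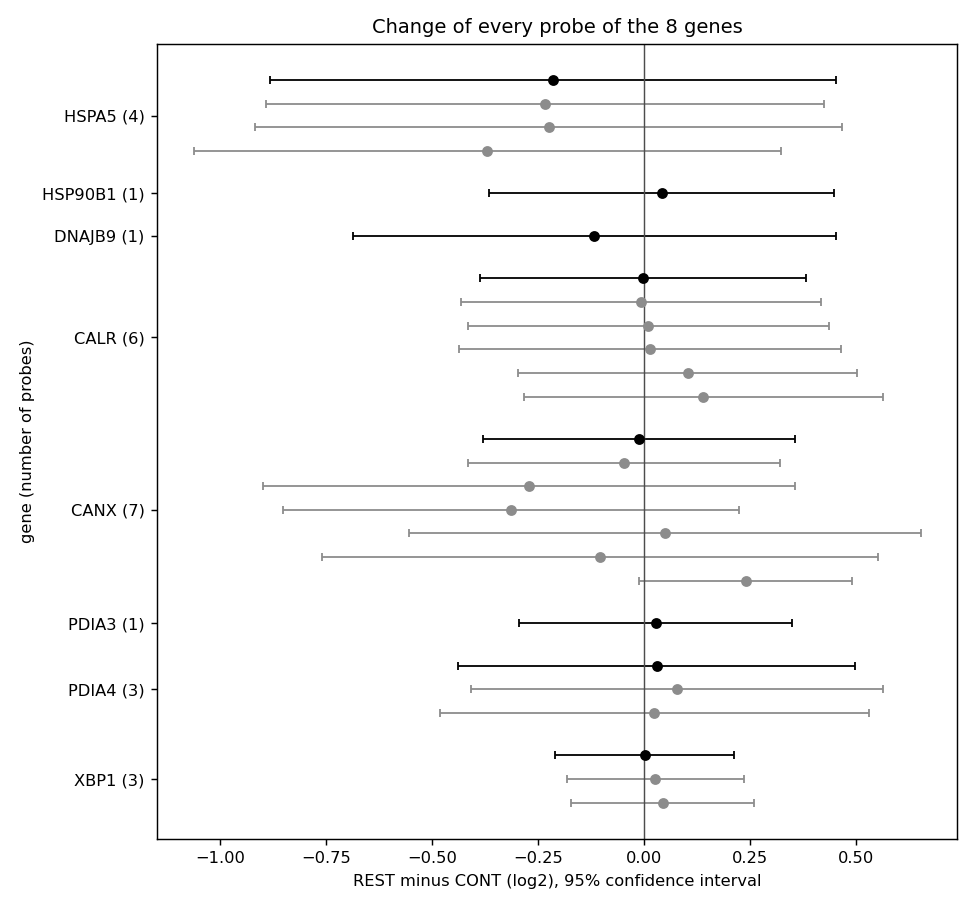
Difference REST minus CONT (log2) of all 26 probes with its 95% confidence interval from limma with cow as a block; black marks the brightest probe of a gene, gray its other probes, from brightest (top) to dimmest. Every interval includes 0, and the widest are those of HSPA5.

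The chaperones moved together within a cow, in a direction that differed between cows. In cow 1, 7 of the 8 genes were lower in REST and XBP1 alone was higher, with a median difference of -0.54. In cow 4 all 8 genes and all 26 probes were lower, with a median of -0.59. In cow 3 all 8 genes and 25 of 26 probes were higher, with a median of 0.32. In cow 5 all 8 genes and all 26 probes were higher, with a median of 0.79. Cow 2 was split, with 4 genes higher and 4 lower and a median of 0.0048, and cow 6 had 5 higher and 3 lower with a median of 0.0043. Over all genes tested, the median difference by cow lay between -0.053 and 0.0081. The labels do not set cows 1 and 4 apart from cows 3 and 5, and no test was made between them.

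HSPA5 had the widest differences. REST was lower than CONT by 1.20 log2 units in cow 4 (2.30-fold), and higher by 1.20 in cow 5 (2.30-fold). It was -1.03 in cow 1, -0.70 in cow 2, 0.44 in cow 3 and 0.0033 in cow 6. In cow 6 the other 3 HSPA5 probes were at -0.056, -0.25 and -0.020, so no direction is given for HSPA5 there. DNAJB9 followed with -0.76, -0.59, 0.48, -1.08, 0.84 and 0.40 in cows 1 to 6, so that HSPA5 and its co-chaperone had the same sign in cows 1 to 5. PDIA4 differed by -0.62, -0.092, 0.39, -0.57, 1.07 and 0.0053, also with the signs of HSPA5 in cows 1 to 5. For these 3 genes, then, cows 1, 2 and 4 were lower and cows 3 and 5 higher.

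HSP90B1 differed by -0.47, 0.21, 0.34, -0.62, 0.84 and -0.047 in cows 1 to 6. CALR differed by -0.44, 0.27, 0.27, -0.68, 0.68 and -0.12. These 2 abundant calcium-binding chaperones had, by their brightest probes, the same sign as each other in every cow and the opposite sign to HSPA5 in cow 2, but the 6 probes of CALR differed in sign in cow 2 (-0.093 to 0.27) and cow 6 (-0.51 to 0.24). CANX differed by -0.57, -0.033, 0.19, -0.49, 0.73 and 0.099. The 7 probes of CANX differed in sign in cow 2 (-0.68 to 0.25), cow 3 (-0.020 to 0.33) and cow 6 (-0.63 to 0.35). PDIA3 differed by -0.50, 0.22, 0.30, -0.44, 0.48 and 0.11. XBP1 differed by 0.15, 0.043, 0.17, -0.38, 0.099 and -0.067, with cow 4 the lowest and no other cow below -0.067.

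**Figure D3:**
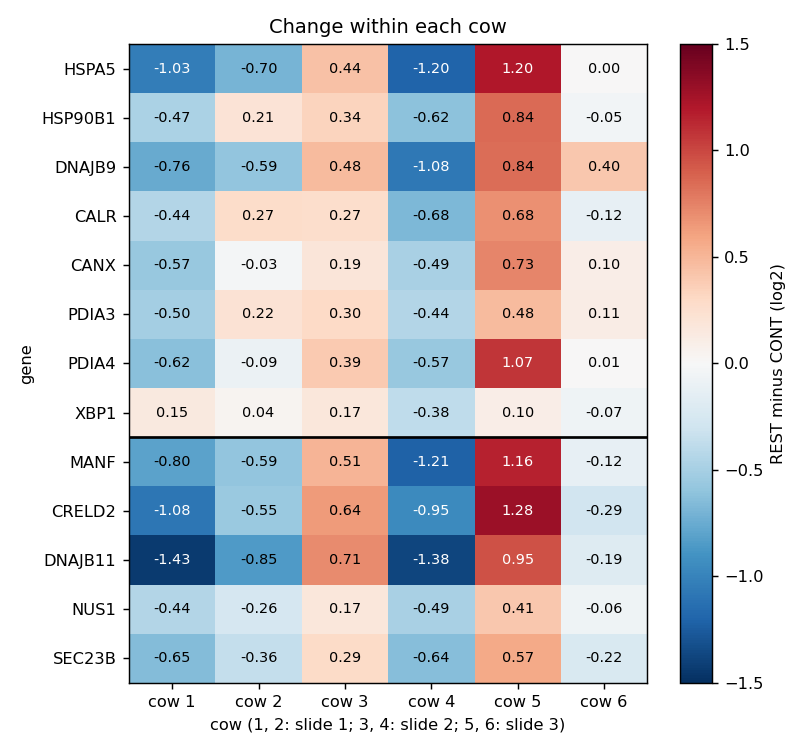
Difference REST minus CONT (log2) within each cow for the 8 genes (above the line) and for the 5 genes most correlated with HSPA5 over the 12 arrays (below the line, chosen for that likeness); red is higher and blue lower in REST. Cows 1 and 4 are blue and cows 3 and 5 red for the chaperones, with HSPA5 reaching -1.20 in cow 4 and 1.20 in cow 5.

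The direction in cows 1, 3, 4 and 5 was the same under other scalings of the arrays. With a median shift, with quantile normalization, and with another background correction (normexp), 7 of 8 genes were lower in cow 1. Under each of these, 8 of 8 were lower in cow 4 and 8 of 8 higher in cows 3 and 5. The median difference in cow 5 was 0.76, 0.86 and 0.93 under these settings in that order, and in cow 4 it was -0.65, -0.49 and -0.56. In cow 3 it was 0.32, 0.36 and 0.66, against 0.32 in the reported fit. In cow 1 it was -0.45, -0.50 and -0.48. Cows 2 and 6 changed: the median of cow 2 was -0.019 with quantile normalization, and with normexp 5 of 8 genes were higher in cow 2 and 7 of 8 in cow 6, where HSPA5 was -0.027. Before scaling, the REST array of each cow was the brighter of its pair, by 0.28, 0.35, 0.17, 0.28, 0.45 and 0.25 log2 units at the 75th percentile in cows 1 to 6. The part of this brightness in the differences within cows was not tested.

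Cows 4 and 5 were often at the ends of the order. Cow 5 was the lowest of the 6 in CONT for 6 of the 8 genes and the highest in REST for 6 of the 8, with both for 4 genes, while for XBP1 it was the highest in both periods. Cow 4 was the highest in CONT for 4 genes and the lowest in REST for 6, with both for 2 genes. The shares of all genes with cow 4 or cow 5 at an end were not computed, so these counts have no reference. The arrays of cow 5 were on slide 3, whose 75th percentile was 73.2 to 117 intensity units against 252 to 390.0 on slides 1 and 2. Its part in these values was not tested. Within slides, the median difference of the 8 genes was -0.22 on slide 1, -0.15 on slide 2 and 0.41 on slide 3, and within slide 1 an HSPA5 probe other than the brightest was called (-1.19, adjusted p = 0.0802 by limma), where 3.60% of all probes were. The 2 cows of slide 2 had medians of 0.32 (cow 3) and -0.59 (cow 4), and those of slide 3 had 0.79 (cow 5) and 0.0043 (cow 6).

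The spread of the difference between cows was wide for the chaperones and ordinary for XBP1. The SD over cows of REST minus CONT was 0.93 log2 units for HSPA5, above 98.8% of all genes tested. It was 0.79 for DNAJB9 (97.6%), 0.63 for PDIA4 (94.8%), 0.54 for HSP90B1 (92.0%), 0.51 for CALR (90.1%), 0.48 for CANX (88.2%) and 0.41 for PDIA3 (81.3%). XBP1, at 0.21, was above 36.1% of genes. Among the 500 genes nearest in mean signal the shares were 98.8% for HSPA5 and 46.7% for XBP1. The median SD over all genes was 0.25. For 5 of the 8 genes, the cow block gave a larger standard error than the fit without it, as it did for 448 of the 7930 genes tested (5.65%).

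**Figure D4:**
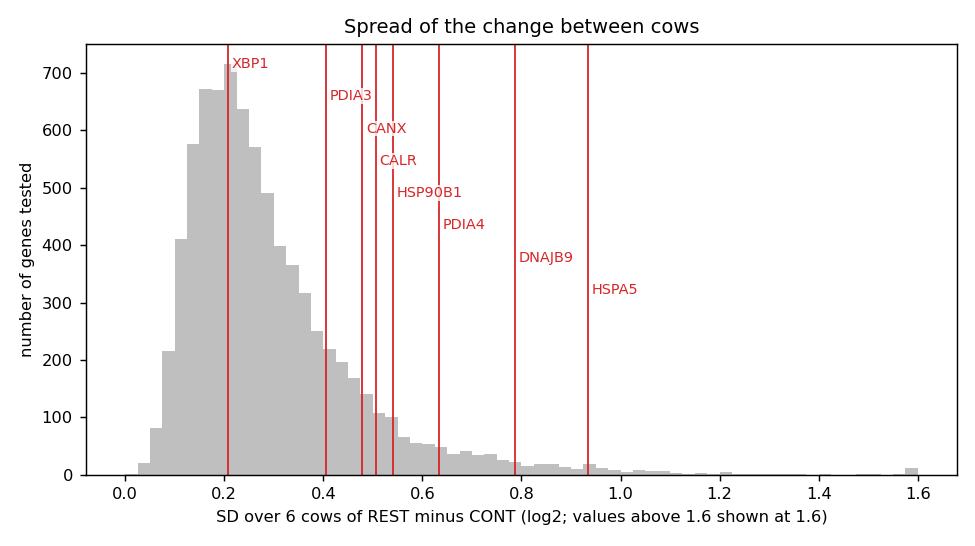
Histogram of the SD over 6 cows of the difference REST minus CONT (log2) for the 7930 genes tested, with red lines at the 8 genes described. HSPA5 (0.93) and DNAJB9 (0.79) lie in the right tail and XBP1 (0.21) below the median of 0.25.

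Across the 6 cows the differences of the chaperones were correlated with each other. Over the 21 pairs of the 7 genes other than XBP1, Pearson's r ranged from 0.78 to 0.99 with a median of 0.92. CALR and HSP90B1 had the highest value, 0.99, and CALR and DNAJB9 the lowest, 0.78. Over the 7 pairs with XBP1, r ranged from 0.40 to 0.62. These are descriptions over 6 points that share arrays and scaling, and no test was made of them.

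The genes with the signal most like that of HSPA5 were sought over the 12 arrays. Of 7928 genes ranked by Pearson's r with HSPA5, the top 5 were MANF (0.967), an ER-resident factor that binds HSPA5, CRELD2 (0.965), an ER stress-inducible disulfide isomerase-like protein, DNAJB11 (0.957), an HSPA5 co-chaperone, NUS1 (0.954), a subunit of the enzyme that makes dolichol for N-glycosylation, and SEC23B (0.940), a coat protein of vesicles leaving the ER. None of the 5 was called, with adjusted p between 0.497 (DNAJB11) and 0.758 (CRELD2) by limma. DNAJB11 differed by -1.43 in cow 1, -1.38 in cow 4 and 0.95 in cow 5, a wider swing than that of HSPA5 in cow 1. Of the genes described here, CANX ranked 23rd (r = 0.857), DNAJB9 26th, PDIA4 28th, HSP90B1 75th, CALR 109th and PDIA3 330th. XBP1 ranked 1985th with r = 0.296.

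XBP1 had other neighbors. The 5 genes most like it were MLX (0.910), HTRA2 (0.894), CAPN7 (0.846), GP2 (0.838) and COPB2 (0.832). MLX encodes a partner of glucose-responsive transcription factors, HTRA2 a mitochondrial serine protease, and COPB2 a coat protein of Golgi vesicles. GP2, a membrane glycoprotein, was the only one called, at 0.32 higher in REST (adjusted p = 0.0405 by limma), and without the cow block its adjusted p was 0.847. Without cow 1 or cow 2 its adjusted p was 0.103 and 0.106. GP2 in cow 4 was 4.14 in CONT and 4.31 in REST, against at least 6.39 and 6.73 in the other cows. XBP1 was also lowest in cow 4 among the REST arrays. The part of this cow in the correlations was not tested. The best placed of the chaperones was PDIA4, 845th with r = 0.495.

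Other genes of the pathway were taken from 7 lists, with 95 genes tested. Of these, 39 (41.1%) had a difference over the 6 cows correlated with that of HSPA5 at r above 0.8, as did 814 of all 7930 genes (10.3%). Over the 95 genes r ranged from -0.945 to 0.995. Its median was 0.738, against 0.047 over all genes. The share was highest, at 15 of 25, among the genes of ER translocation and N-glycosylation. Of the 10 UPR sensors and transcription factors, 1 did so, the sensor kinase EIF2AK3 (PERK), named here after its value of 0.989 was seen. Its mean difference was 0.0081 (adjusted p = 0.975 by limma). The lowest r of these 10 genes was -0.896, for MBTPS1, also named after its value was seen, and their median r was -0.023.

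Of the 10 tested UPR sensors and transcription factors, 1 was called higher and 1 lower in REST, with a median difference of 0.019. Over all genes tested, 6.94% were called higher and 9.27% lower, and no list was tested as a set. DDIT3 (CHOP), a transcription factor induced by the PERK branch and by amino acid shortage, had lowest, median and highest signals of 1.13, 1.93 and 2.88 in CONT and of 1.98, 2.79 and 3.89 in REST. It was higher in REST in 5 of 6 cows, by 0.68 to 1.61, and was -0.33 in cow 6. The difference was 0.95 (SE 0.23, adjusted p = 0.0409 by limma, both probes called). Its adjusted p was 0.185 without the cow block, and 0.106, 0.119 and 0.114 without cow 1, 2 or 4. DDIT3 was higher in cows 1 and 4, where HSPA5 was lowest relative to CONT, as well as in cows 3 and 5. ATF6B, the homolog of the sensor ATF6, ranged from 2.32 to 3.48 in CONT (median 3.15) and from 2.16 to 3.26 in REST (median 2.75). It was lower in 6 of 6 cows, by -0.30 (SE 0.10, adjusted p = 0.0978 by limma, 1 of 2 probes called), and lost the call whichever of the 6 cows was left out (adjusted p 0.105 to 0.247) and without the block (0.582).

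With 1 probe per gene, none of the 10 HSPA5 co-chaperones and exchange factors was called by limma (0), against 16.2% of all genes. At an unadjusted p under 0.05 there were also 0, and with any probe counted 1 was called. The median difference of the 10 genes was -0.094, with 8 below 0 and 2 above. By cow, their median was -0.42, -0.085, 0.28, -0.47, 0.22 and -0.14 in cows 1 to 6.

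Of the 16 protein disulfide isomerases and ER oxidases beside PDIA3 and PDIA4, 1 was called higher and 1 lower. Over all genes these shares were 6.94% and 9.27%. TMX1, a membrane-bound thioredoxin-like oxidoreductase, ranged from -0.27 to -0.0052 in CONT and from 0.19 to 0.44 in REST. It was higher in 6 of 6 cows, by 0.45 (SE 0.074, adjusted p = 0.0152 by limma; 0.0201 without the block), but 1 of its 2 probes was called and the other differed by 0.11. TXNDC5, a soluble disulfide isomerase, ranged from 5.74 to 6.07 in CONT and from 5.10 to 5.73 in REST. It was lower in 6 of 6 cows, by -0.49 (SE 0.11, adjusted p = 0.0324 by limma; 0.0517 without the block), on both of its probes. TMX1 and TXNDC5 were called in all 6 fits that left out a cow, but TXNDC5 lost its call with normexp (-0.32, adjusted p = 0.108 by limma) and with no filter on dim probes (adjusted p = 0.137).

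With 1 probe per gene, none of the 8 tested genes of glycoprotein folding and quality control was called (0), against 16.2% of all genes. At an unadjusted p under 0.05 by limma there were 2, and with any probe counted 2 were called. The median difference was 0.033. Of the 19 tested genes of ER-associated degradation, 1 was called, against 16.2% of all genes. This was DERL1, a subunit of the channel that exports misfolded proteins. It ranged from 2.29 to 2.87 in CONT (median 2.71) and from 1.90 to 2.68 in REST (median 2.16). The difference was -0.39 (SE 0.12, adjusted p = 0.0780 by limma), lower in 5 of 6 cows, on 1 of 2 probes. Its adjusted p was 0.180, 0.202, 0.136 and 0.199 without cow 1, 2, 3 or 4, and 0.189 without the block.

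Of the 7 tested ER prolyl isomerases, which turn peptide bonds at proline, 2 were called lower and 0 higher, with a median difference of -0.21. Over all genes tested, 9.27% were called lower and 6.94% higher. PPIC (cyclophilin C) ranged from -0.83 to -0.28 in CONT and from -1.87 to -0.71 in REST. It was lower in 6 of 6 cows, by -0.60 (SE 0.13, adjusted p = 0.0331 by limma; 0.138 without the block), on 1 of 2 probes. FKBP11 ranged from 3.40 to 3.71 in CONT and from 2.91 to 3.52 in REST. It was lower in 5 of 6 cows, by -0.38 (SE 0.12, adjusted p = 0.0893 by limma; 0.110 without the block), on 1 of 2 probes. Without cow 1, 2, 4, 5 or 6 its adjusted p was 0.204, 0.220, 0.221, 0.111 and 0.125.

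Of the 25 tested genes of ER translocation and N-glycosylation, 1 was called, against 16.2% of all genes. This was SSR4, a subunit of the complex beside the protein-conducting channel. SSR4 ranged from 7.05 to 7.39 in CONT and from 6.37 to 6.84 in REST. It was lower in 6 of 6 cows, by -0.57 (SE 0.098, adjusted p = 0.0171 by limma; 0.0130 without the block), on both probes, and was called in all 6 fits that left out a cow. With no filter on dim probes SSR4 lost its call (adjusted p = 0.101 by limma). The median difference of the list was -0.088, with 19 genes below 0 and 6 above.

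**Figure D5:**
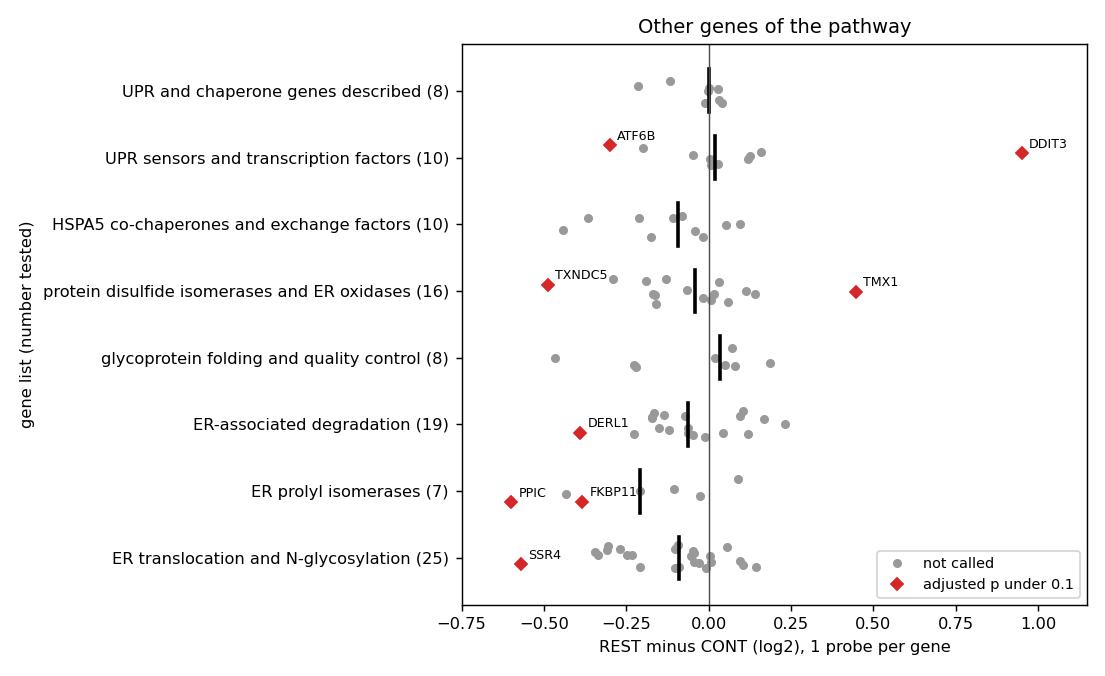
Difference REST minus CONT (log2, 1 probe per gene) of the 8 genes described and of the tested genes of the 7 pathway lists; red diamonds are genes with an adjusted p under 0.1, gray circles the others, and black bars the list medians; vertical placement within a list is arbitrary. The 8 genes have a median of -0.00028, with HSPA5 the lowest at -0.21, while DDIT3 at 0.95 and TMX1 at 0.45 are the called genes above 0.

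Marker lists were used to check the tissue. For the counts of called markers below, 6.94% of all genes tested were called higher and 9.27% lower in REST. No marker list was tested as a set. The milk protein genes and luminal keratins and adhesion genes were well above background on all 12 arrays for 5 of 5 and 8 of 9 genes with a probe. TP63 (myoepithelial), MS4A1 (B cell), ITGAM (leukocyte), PLIN1 (adipocyte), ALAS2 (erythrocyte) and MYH1 (skeletal muscle) were not well above background on any array. The summed signal of the 5 milk protein genes was 12.05 to 12.41 in CONT and 11.74 to 12.13 in REST, lower in REST in 6 of 6 cows by -0.32, -0.31, -0.19, -0.15, -0.047 and -0.28 in cows 1 to 6, with 2 of 5 genes called lower. The luminal list ranged from 7.91 to 8.38 in CONT and from 8.05 to 8.45 in REST, with 3 of 8 tested genes called higher, and its summed signal differed by 0.41, 0.081, -0.13, 0.090, -0.17 and 0.14 in cows 1 to 6. Plasma and B cell markers, which include highly secretory cells, ranged from 2.91 to 3.47 in CONT and from 2.80 to 3.74 in REST, with 0 of 5 tested genes called by limma, and their summed signal differed by 0.24, -0.12, -0.077, -0.53, 0.27 and 0.16 in cows 1 to 6. Fibroblast markers ranged from 5.11 to 6.04 in CONT and from 4.76 to 6.25 in REST, with 0 of 7 called, and differed by -0.85, -0.55, 0.58, 0.30, 0.27 and -0.47. T cell and other leukocyte markers differed by -0.0077, 0.24, 0.30, 0.13, 0.32 and -0.19. In cows 1, 3, 4 and 5, where the chaperones shared a direction, the summed signal had their sign in 3 of 4 cows for the fibroblast and the T cell and other leukocyte lists, in 2 for 5 of the 10 lists, in 1 for 2 lists and in 0 for the luminal list. Of the other lists, 1 of 7 tested myoepithelial genes was called higher and 2 lower, 2 of 9 T cell and other leukocyte genes higher, 1 of 6 endothelial genes higher, 2 of 2 adipocyte genes lower, 1 of 2 skeletal muscle genes lower, and 0 of 2 erythrocyte genes. The part of other cell types in the differences of the chaperones within cows was not tested.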

How the data were processed

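Per the file headers, the authors used Agilent Feature Extraction 11 to quantify the spots. The values they deposited are linear intensity values after background subtraction, without scaling between arrays, and the deposited series table held the same intensity in all 45220 cells of each array. The grid annotation is of another assembly than the RefSeq table used for symbols (27131 probes, 12787 genes), so no coordinates are given, and no sequence was at hand to print.

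Each array was scaled here by subtracting, on the log2 scale, the 75th percentile of its processed signals without controls. Spots marked as outliers (1 to 13 per array) were left out, repeat spots (50 probes) averaged, and a probe tested if all arrays of CONT, or all of REST, were well above background for it. The periods were compared in limma 3.58.1 (R 4.3.3), two-sided, with cow as a fixed block and Benjamini-Hochberg adjustment over all 19403 probes at a threshold of 0.1. The methods of the study describe a moderated test and do not mention pairing; the block was used because the labels name the cow, and deviations from group means correlated over probes between the 2 samples of a cow (r 0.36 to 0.57) and less between cows (-0.33 to 0.13). Genes were represented by their brightest tested probe. The p-values rest on the spread, over these 6 cows, of the difference within a cow. In limma this spread is moderated by that of all tested probes, and the number of arrays limits the precision. Python 3.11.15 with pandas 2.3.3 and matplotlib 3.10.9 made the summaries and plots.

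The genes, the 7 pathway lists and the 10 marker lists were chosen with earlier results of these data known. Named genes are the 10 members, up to 4 called genes per pathway list, the 5 genes most correlated with HSPA5 and with XBP1, and markers never above background, of which 1 is not reported here. EIF2AK3 and MBTPS1 are named beside these, after their values were seen, and are not among the named genes checked below. Alternatives covered the block, scaling, background, filter, moderation, choice of probe, each cow left out and slide 3 left out.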

Additional observations from a re-analysis of the deposited data

Results flagged for a closer look

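For the 26 named genes, the distance of the highest or lowest array to its nearest neighbor, as a ratio to the range over the 6 arrays of CONT or of REST, was set against Dixon's 95% critical value. Of 52 groups of values, 3 exceeded it, where 2.6 are to be reached by chance at this level. The REST signal of XBP1 in cow 4 was 5.72 against 6.18 to 6.45 in the other cows (ratio 0.626), and it was the lowest REST array on all 3 probes. GP2 in cow 4 was 4.14 in CONT against 6.39 to 7.72 (ratio 0.628), and 4.31 in REST against 6.73 to 8.18 (ratio 0.626).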

How the results depend on the processing

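The count of called genes among the 8 was 0 under every alternative, and the count of called probes 0 to 2 when a cow was left out. Over all probes, 3104 were called, but 836 with no replicate block for the cow, 1898 with slide as the block, 1852 without moderation, 388 with no filter on dim probes and 1045 to 3252 when a cow was left out. More were called with normexp (3677, of which 54.0% were higher in REST against 45.1% in the reported fit), with cow as a random block (3548) and with trend and robust settings (3514). With no block, the prolyl isomerase, degradation and sensor lists had 0 called genes, as they did without moderation. With slide as the block they had 1, 1 and 0. With no filter, those 3 lists and translocation had 0 and the disulfide isomerases 1. With cow as a random block, translocation had 4, degradation 2, sensors 1 and glycoprotein folding 2. With trend and robust settings, translocation had 3 and degradation 2. With any probe counted, sensors had 3, degradation 3, co-chaperones 1 and glycoprotein folding 2. Translocation had 2 with probes above background on all 12 arrays. Sensors had 1 with a median shift and 1 with quantile normalization, which also gave prolyl isomerases 1. Normexp on the median signals (the mean signal planned is not a column of the files) and the fit without slide 3, both chosen after seeing the data, gave prolyl isomerases 1, translocation 2, sensors 1 and glycoprotein folding 1, and without slide 3 degradation 2.

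Signs turned under normexp for CALR (0.15), CANX (0.10), CAPN7 (0.029), COPB2 (0.064), DNAJB9 (0.0051), HTRA2 (0.094), MLX (0.051) and NUS1 (0.0049). They turned under quantile normalization for CANX (0.060) and HTRA2 (0.0017), under a median shift for CALR (0.00021), and with the median over probes for CALR (0.013) and CAPN7 (0.017). Without slide 3 they turned for HSP90B1 (-0.14), HTRA2 (0.012), PDIA3 (-0.11), PDIA4 (-0.22) and XBP1 (-0.0052). When a cow was left out, differences ranged from -0.14 to 0.13 for CALR, -0.16 to 0.10 for CANX, -0.45 to 0.024 for CRELD2, -0.31 to 0.075 for DNAJB9, -0.12 to 0.17 for HSP90B1, -0.064 to 0.012 for HTRA2, -0.44 to 0.031 for MANF, -0.062 to 0.13 for PDIA3, -0.18 to 0.16 for PDIA4 and -0.031 to 0.079 for XBP1. Called genes then numbered 1 to 3 of the prolyl isomerases, 1 to 3 of translocation, 0 to 2 of degradation, 0 to 1 of the sensors and 0 to 2 of glycoprotein folding. The median difference of the 8 genes ranged from -0.15 to 0.10. The cause of these changes was not tested. Slide 3, with 41.9 to 48.0% of spots well above background against 61.8 to 67.9% on the other slides, limits what is measured for dim probes in cows 5 and 6.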
